A study of Mus musculus with 9 samples.

Results

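The proteins of the ribosome inside mitochondria are encoded by nuclear genes whose mouse symbols begin with Mrpl, for the large subunit, or Mrps, for the small one. Members were all genes whose symbol has one of these beginnings followed by a number, and the 5 pseudogenes with such symbols were left out. The rule used names and no measured value, and it gave 78 of the 54838 genes in the deposited tables, 49 named Mrpl and 29 named Mrps. All 78 passed the filter on low values described below, so no member is missing from the tests.

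The mitochondrial ribosome translates the few mRNAs of the mitochondrial genome, which encode core subunits of the respiratory chain and of ATP synthase. Its RNAs are made inside the mitochondrion, while its proteins are made in the cytosol and imported, some of them descended from bacterial ribosomal proteins and others added during mitochondrial evolution. In the crypts of the intestine, stem cells and Paneth cells are known to differ in how much they use mitochondrial respiration.

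RNA was sequenced from organoids grown from the small intestine of C57BL/6 mice of genotype Vil-CreERT2; Mettl3 fl/fl. The villin promoter drives the Cre recombinase, so it acts in epithelium, and 4-hydroxytamoxifen (4-OHT, dissolved in ethanol, EtOH) activates it to excise the floxed part of Mettl3, the gene for the catalytic subunit of the enzyme that methylates adenosines in mRNA. Nec-1 (necrostatin-1, dissolved in DMSO) inhibits the kinase RIPK1, and the study asked how the loss of Mettl3 and this inhibitor affect cell death. All 4 groups had this genotype, and none was without the floxed alleles or without Cre. EtOH DMSO (2 libraries) received ethanol for 2 days and DMSO for 5 days, EtOH Nec-1 (2 libraries) received Nec-1 in place of DMSO, 4-OHT DMSO (2 libraries) received 500 nM 4-OHT in place of ethanol, and 4-OHT Nec-1 (1 library) received both agents. The paper mentions biological replicates for its experiments in general, but no source says of these libraries that they came from separate cultures, so p-values measure only the spread between these libraries.

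Values are FPKM, fragments per kilobase of transcript, scaled by the mapped fragments of the library. This adjusts for transcript length and depth only, and what changes with further scaling is given below. The sum over all genes was 476574 and 450207 with EtOH DMSO, 498712 and 489619 with EtOH Nec-1, 487432 and 486563 with 4-OHT DMSO and 498102 with 4-OHT Nec-1. Numbers of fragments are not in the tables used here. Read from the spacing of the lowest values, the depth of the libraries relative to EtOH DMSO replicate 1 was 1.03 for replicate 2, 0.853 and 0.907 with EtOH Nec-1, 0.919 and 0.869 with 4-OHT DMSO and 0.931 with 4-OHT Nec-1. Over the 12702 genes tested, log2(FPKM + 1) of the 2 libraries of a group correlated with a Pearson's r of 0.984 with EtOH DMSO, 0.989 with EtOH Nec-1 and 0.965 with 4-OHT DMSO, across genes, which are not independent replicates.

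Mettl3 itself (ENSMUSG00000022160) went against the labels. Its FPKM were 3.72 and 4.14 in the pair labelled 4-OHT DMSO. It was 3.36 FPKM where the label adds Nec-1 to 4-OHT. The libraries without 4-OHT were lower, with 2.70 and 2.71 FPKM under DMSO and 2.41 and 2.47 under Nec-1. No library labelled 4-OHT overlapped with those labelled EtOH, and the log2 fold change of 4-OHT DMSO over EtOH DMSO was 0.41 (standard error 0.098; limma adjusted p = 0.0231 by Benjamini-Hochberg over all genes tested). After each library was centred on its median, the fold change was 0.25 (limma adjusted p = 0.0796). An FPKM sums all exons, so the floxed part cannot be read apart from the rest of the gene. For this reason the libraries are called by their labels throughout, and each direction below rests on those labels. The study cites reduced stemness after the deletion, and of 6 stem cell markers Lgr5, Olfm4 and Smoc2 were lower in 4-OHT DMSO (log2 fold changes -0.65, -0.87 and -1.301, limma adjusted p = 0.0128, 0.0349 and 0.000573). The other 3, Axin2, Ascl2 and Slc12a2, did not pass (-0.36, -0.33 and 0.17), and Slc12a2 was highest of all in 4-OHT DMSO replicate 1. Whether labels were exchanged was not tested.

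The 78 members summed to 1779 and 1571 FPKM with EtOH DMSO, 1589 and 1582 with EtOH Nec-1, 2285 and 2223 with 4-OHT DMSO and 2070 with 4-OHT Nec-1. Each of the 3 libraries labelled 4-OHT thus held more than any of the 4 labelled EtOH. As a share of all FPKM the members took 0.373% and 0.349% with EtOH DMSO, 0.319% and 0.323% with EtOH Nec-1, 0.469% and 0.457% with 4-OHT DMSO and 0.415% with 4-OHT Nec-1, with the same split. The median member was at 17.4 and 15.3 FPKM with EtOH DMSO, 15.5 and 15.8 with EtOH Nec-1, 22.4 and 21.1 with 4-OHT DMSO and 19.2 with 4-OHT Nec-1. From bulk RNA, fewer cells of a type and less RNA per cell cannot be told apart, and this holds for every level given here.

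**Figure D1:**
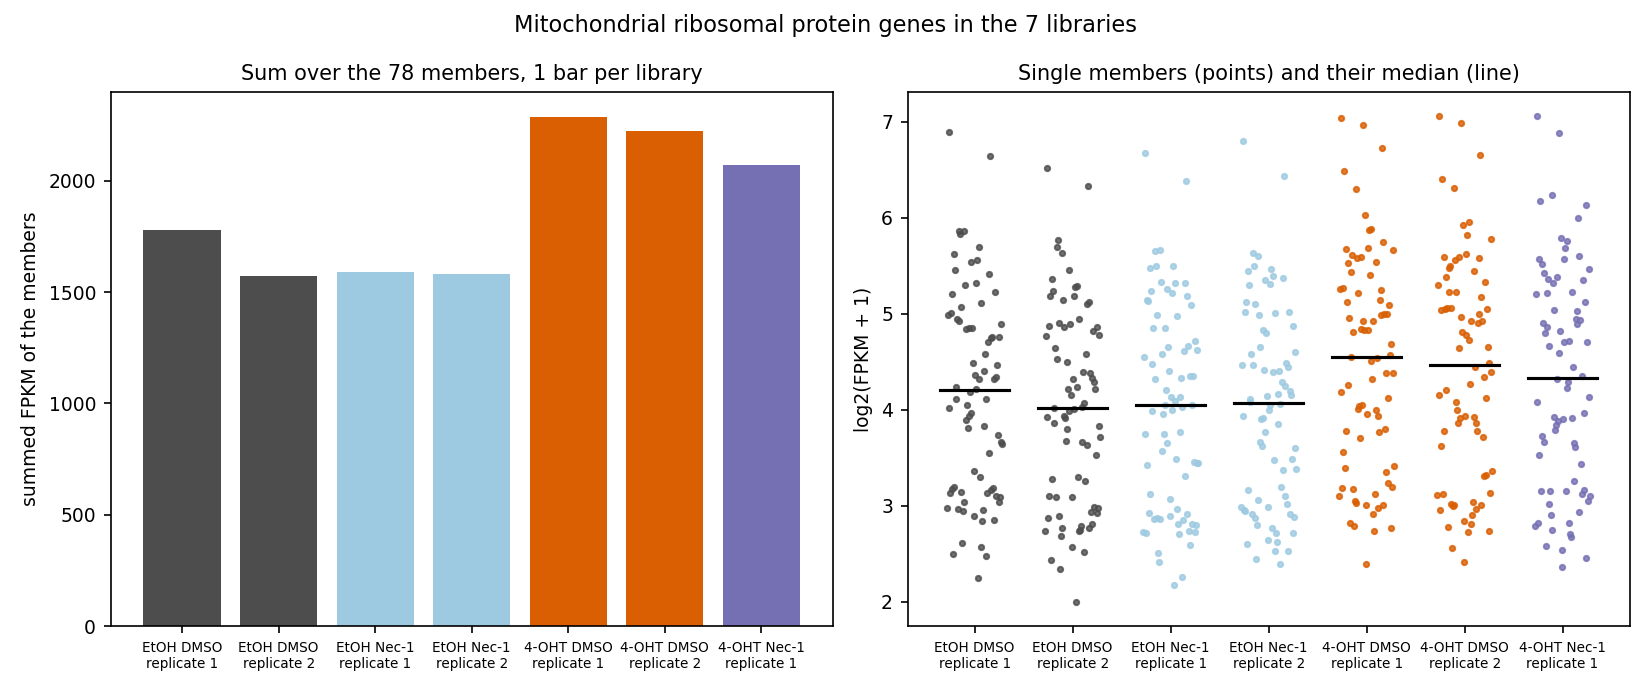
Left, summed FPKM of the 78 members in each of the 7 libraries; right, log2(FPKM + 1) of each member as a point and the members' median as a line, coloured by group. The sums of the 4 libraries labelled EtOH lie between 1571 and 1779, and those of the 3 labelled 4-OHT between 2070 and 2285.

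Levels differed widely between members although the ribosome holds each protein once or a few times. In EtOH DMSO the group means ran from 3.37 FPKM for Mrpl53 to 104 FPKM for Mrpl12, a 30.9-fold range, and in 4-OHT DMSO from 4.29 FPKM for Mrpl48 to 131 FPKM for Mrpl12. The 10 most abundant members held 34.0% of the members' FPKM in EtOH DMSO, 33.8% with EtOH Nec-1, 35.6% with 4-OHT DMSO and 35.3% with 4-OHT Nec-1. The 5 members with the highest mean over all libraries were Mrpl12, Mrps21, Mrpl43, Mrpl34 and Mrpl16. The 5 with the lowest were Mrpl48, Mrpl32, Mrps17, Mrpl58 and Mrps35.

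Mrpl12 (ENSMUSG00000039640) encodes the protein of the flexible stalk of the large subunit, where translation factors bind. It measured 118 and 90.6 FPKM with EtOH DMSO, 101 and 110 with EtOH Nec-1, 130 and 132 with 4-OHT DMSO and 132 with 4-OHT Nec-1. The libraries labelled 4-OHT were all above those labelled EtOH, but the 2 EtOH DMSO libraries lay further apart than the other pairs of replicates, and the fold change of 4-OHT DMSO over EtOH DMSO did not pass (log2 fold change 0.34, standard error 0.14, limma adjusted p = 0.0985). Leaving out EtOH DMSO replicate 1, the higher of its pair, raised this fold change to 0.53, so its size depended on that library. Median centring lowered it to 0.185 (limma adjusted p = 0.384).

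The 2 libraries of a group were close for most members. The median gap in log2(FPKM + 1) was 0.163 with EtOH DMSO, 0.0981 with EtOH Nec-1 and 0.0695 with 4-OHT DMSO, against 0.151, 0.0962 and 0.144 over all genes tested. A gap of at least 0.5 occurred for 0 members in EtOH DMSO, for Mrpl53 and Mrps23 with EtOH Nec-1, and for these and Mrpl27 with 4-OHT DMSO, against 6.78%, 5.01% and 12.2% of all genes. These 3 were singled out after their values were seen. Mrpl53 (ENSMUSG00000030037), a large subunit protein specific to mitochondria, was at 3.75 and 3.00 FPKM with EtOH DMSO, 3.53 and 5.79 with EtOH Nec-1, 41.2 and 5.60 with 4-OHT DMSO and 7.92 with 4-OHT Nec-1. One library, 4-OHT DMSO replicate 1, stood far above the other 6. The log2 fold change of 1.94 over EtOH DMSO rests on it (standard error 0.83, limma adjusted p = 0.117), and Mrpl53 passed the threshold only when 4-OHT DMSO replicate 2 was left out. It shares 14 bases with Ccdc142 on the genome, which stayed between 0.442 and 0.727 FPKM in the 7 libraries.

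The comparison of 4-OHT DMSO with EtOH DMSO asks what differs after activation of Cre, as labelled. limma was fitted to log2(FPKM + 1) of every gene that reached 1 FPKM in 2 or more libraries, with Benjamini-Hochberg adjustment over all 12702 and a threshold of 0.05. Because of the added 1, a gene with few FPKM gets a fold change below its plain ratio. Of the 78 members 26 were higher (33.3%) and 3 were lower (3.85%), where limma called 24.5% of all genes higher and 16.7% lower. In 48 members (61.5%) both 4-OHT DMSO libraries lay above both EtOH DMSO libraries, and in 15 (19.2%) below, against 40.7% and 30.8% of all genes. The median log2 fold change was 0.21 for the members and 0.077 for all genes.

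Part of this depends on scaling. Centring each library on its median shifted the all-gene median of this comparison by -0.157, to -0.080, and the members' median to 0.057. Then 22 members were higher and 12 lower by limma, with 2213 and 3187 of all genes. All 22 were among the 26, and all 3 lower members stayed lower, joined by Mrpl2, Mrpl23, Mrpl28, Mrpl42, Mrpl47, Mrps16, Mrps31, Mrps35 and Mrps36. Measured against the median level of each library, members were thus called in both directions, and their median stayed above that of all genes. In the 16 alternative settings, 19 of the 26 higher members stayed higher each time, while 0 of the 3 lower members stayed lower each time. The count of lower members was 0 without EtOH DMSO replicate 1, 3 without EtOH DMSO replicate 2, and 1 without either EtOH Nec-1 library or either 4-OHT DMSO library. The members' median was 0.34 without EtOH DMSO replicate 1 and 0.15 without its replicate 2.

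By their place in the ribosome, the higher members were 5 of 16 small subunit proteins with a bacterial homologue, 4 of 10 small subunit proteins specific to mitochondria, 6 of 30 large subunit proteins with a bacterial homologue and 11 of 21 large subunit proteins specific to mitochondria. The lower ones were 1, 0, 1 and 1 of these. Over all genes tested limma called 24.5% higher and 16.7% lower. Median log2 fold changes in the same order were 0.21, 0.44, 0.20 and 0.43, and after centring 0.050, 0.28, 0.041 and 0.27. After centring the counts were 5 higher and 2 lower, 4 and 2, 5 and 5, and 8 and 2, beside 2213 and 3187 of the 12702 genes. Mrps36, which is now known as a subunit of the 2-oxoglutarate dehydrogenase complex and not of the ribosome, was placed in none of them. It had a log2 fold change of -0.22 (limma adjusted p = 0.158).

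**Figure D2:**
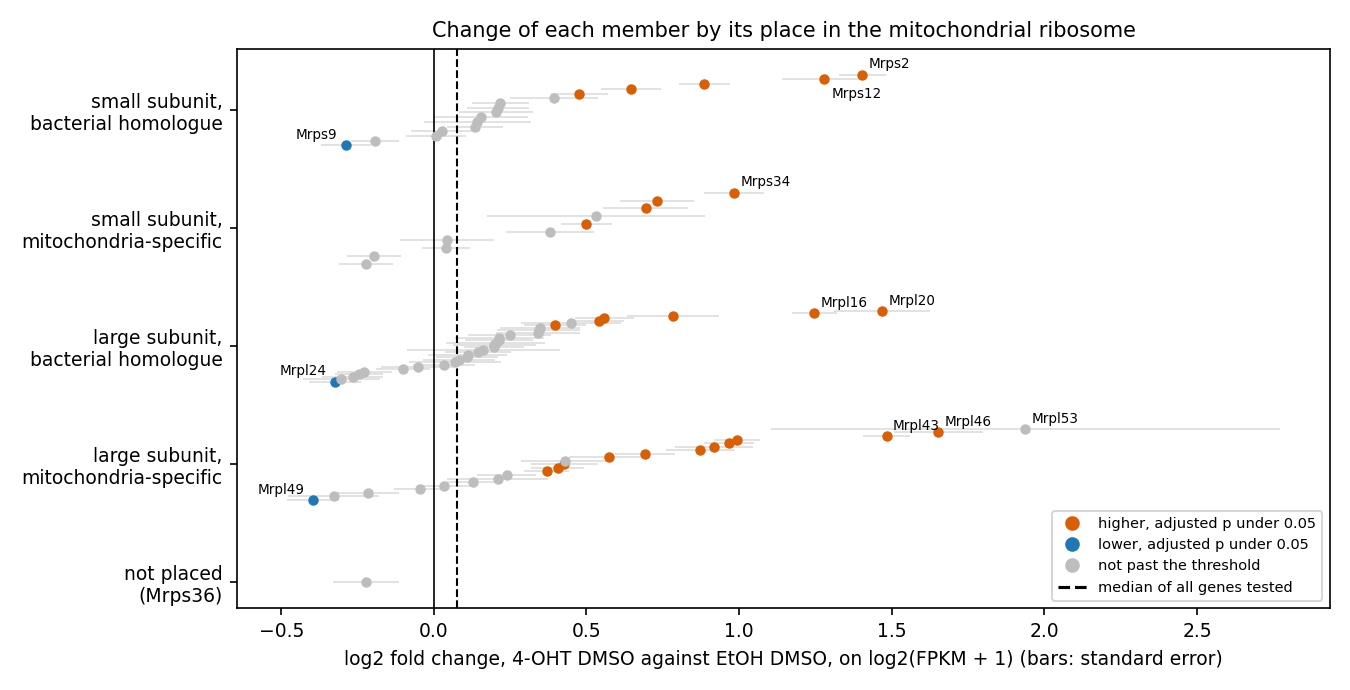
Log2 fold change of 4-OHT DMSO over EtOH DMSO on log2(FPKM + 1) for each of the 78 members (points, bars give the standard error), arranged by place in the ribosome, orange or blue where limma's adjusted p was under 0.05. The dashed line marks the median of all genes, 0.077, which becomes -0.080 after median centring; members lie on both sides of it.

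In the small subunit the largest rise was that of Mrps2 (ENSMUSG00000035772), the homologue of bacterial S2. Its FPKM were 10.7 and 11.4 with EtOH DMSO, 8.91 and 9.37 with EtOH Nec-1, 30.8 and 30.9 with 4-OHT DMSO and 28.6 with 4-OHT Nec-1. The 3 libraries labelled 4-OHT stood well above the other 4 without overlap, and the fold change over EtOH DMSO was 1.40 in log2 (standard error 0.078, limma adjusted p = 0.000449, higher in 4 of 4 pairings of libraries). Mrps2 shares 374 bases with 1700007K13Rik on the genome. That gene measured 0.154 and 0.252 FPKM with EtOH DMSO and 2.55 and 1.91 with 4-OHT DMSO (log2 fold change 1.42, limma adjusted p = 0.00207). The strand setting of the quantification is not stated, so values of overlapping genes are uncertain.

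Mrps12 (ENSMUSG00000045948) encodes a protein of the decoding centre, where codon and tRNA are matched. It was measured at 20.2 and 15.3 FPKM with EtOH DMSO, 16.6 and 16.9 with EtOH Nec-1, 45.4 and 42.6 with 4-OHT DMSO and 36.3 with 4-OHT Nec-1. Again the groups labelled 4-OHT and EtOH did not overlap (log2 fold change 1.28, standard error 0.14, limma adjusted p = 0.00201, higher in 4 of 4 pairings).

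Mrps34 (ENSMUSG00000038880) belongs to the proteins specific to mitochondria and is needed for a stable small subunit. Its levels were 12.3 and 10.5 FPKM with EtOH DMSO, 9.99 and 10.2 with EtOH Nec-1, 22.8 and 24.1 with 4-OHT DMSO and 69.0 with 4-OHT Nec-1. The 4-OHT DMSO libraries were above all 4 labelled EtOH (log2 fold change 0.98, standard error 0.097, limma adjusted p = 0.00163, higher in 4 of 4 pairings), and the 4-OHT Nec-1 library was higher still. Mrps9 (ENSMUSG00000060679), whose bacterial homologue reaches the tRNA in the P site, was the lower member of this subunit. It was at 11.5 and 12.1 FPKM with EtOH DMSO, 9.88 and 9.46 with EtOH Nec-1, 9.69 and 9.28 with 4-OHT DMSO and 7.60 with 4-OHT Nec-1. Both EtOH DMSO libraries were above the other 5, so the EtOH Nec-1 libraries lay as low as those labelled 4-OHT DMSO (log2 fold change -0.29, standard error 0.082, limma adjusted p = 0.0388). This call was lost in each of 6 fits with a library of a replicated group left out (limma adjusted p from 0.0694 to 0.122).

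The 3 genes of the Mrps18 family are related to bacterial S18, although only Mrps18c was counted above as having a bacterial homologue. Structures place Mrps18b and Mrps18c in the small subunit and Mrps18a in the large one. Mrps18a (ENSMUSG00000023967) was at 7.76 and 8.56 FPKM with EtOH DMSO, 6.22 and 8.14 with EtOH Nec-1, 12.6 and 12.7 with 4-OHT DMSO and 11.2 with 4-OHT Nec-1. Mrps18b (ENSMUSG00000024436) was at 25.0 and 22.9, 23.5 and 18.6, 34.2 and 28.9, and 29.9 FPKM in the same order. Mrps18c (ENSMUSG00000016833) was at 41.7 and 33.4, 38.8 and 40.5, 37.0 and 46.7, and 31.6 FPKM. For Mrps18a and Mrps18b the libraries labelled 4-OHT lay above all labelled EtOH, whereas for Mrps18c the groups overlapped. In this fit only Mrps18a passed (log2 fold change 0.58, standard error 0.13, limma adjusted p = 0.0211), and it did not without either EtOH DMSO or either 4-OHT DMSO library (limma adjusted p from 0.0533 to 0.0953). Mrps18b had 0.38 (limma adjusted p = 0.0837) and Mrps18c 0.15 (limma adjusted p = 0.460). Differences between the 3 fold changes were not tested.

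The promoters of Mrps12 and Mrps18b are shown, Mrps12 because it rose most among the members with a start shared with a gene on the other strand in this subunit and Mrps18b because it is a named marker of these genes. They are the 250 bases before to 50 bases after the start in RefSeq on build GRCm38.p6, written from 5′ to 3′ on the strand of the gene. Mrps12 is chr7:28741772-28742071 on the minus strand, and Mrps18b is chr17:35916391-35916690 on the minus strand. Capitals mark matches to the motifs spelled out further on, other than the CCAAT box, which Mrps12 holds in lower case.
Mrps12: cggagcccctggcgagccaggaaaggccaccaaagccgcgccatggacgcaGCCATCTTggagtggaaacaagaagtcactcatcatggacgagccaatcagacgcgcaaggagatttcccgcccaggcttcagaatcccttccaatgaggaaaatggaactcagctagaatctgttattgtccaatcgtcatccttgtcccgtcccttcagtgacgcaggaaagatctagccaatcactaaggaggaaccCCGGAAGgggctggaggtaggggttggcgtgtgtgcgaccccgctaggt
Mrps18b: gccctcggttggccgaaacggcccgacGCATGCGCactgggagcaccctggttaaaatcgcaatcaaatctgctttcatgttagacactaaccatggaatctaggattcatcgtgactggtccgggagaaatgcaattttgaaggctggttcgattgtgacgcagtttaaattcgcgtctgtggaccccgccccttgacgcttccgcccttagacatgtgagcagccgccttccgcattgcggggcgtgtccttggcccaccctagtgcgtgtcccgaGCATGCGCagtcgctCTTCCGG

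In Mrps12 the capitals are the YY1 core on the other strand, 199 bases before the start, and the ETS site, which begins 1 base after it. In Mrps18b they are the NRF-1 core at 223 bases before and 28 bases after the start, and the ETS site on the other strand at 43 bases after it.

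In the large subunit 7 members belonged to the 10 largest rises past the threshold. Mrpl46 (ENSMUSG00000030612), a protein specific to mitochondria in the central protuberance, was at 21.4 and 16.8 FPKM with EtOH DMSO, 20.1 and 16.7 with EtOH Nec-1, 64.1 and 59.7 with 4-OHT DMSO and 54.1 with 4-OHT Nec-1. All 3 libraries labelled 4-OHT were above 50 FPKM and all 4 labelled EtOH far below. Its log2 fold change was the largest past the threshold among the members (1.65, standard error 0.15, limma adjusted p = 0.00123, higher in 4 of 4 pairings).

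Mrpl43 (ENSMUSG00000025208), which has a thioredoxin-like fold, was at 45.3 and 42.9 FPKM with EtOH DMSO, 37.2 and 39.7 with EtOH Nec-1, 124 and 126 with 4-OHT DMSO and 117 with 4-OHT Nec-1. The replicates nearly coincided in each group and the labels separated them (log2 fold change 1.48, standard error 0.078, limma adjusted p = 0.000409, higher in 4 of 4 pairings). It moved from below Mrps21 and Mrpl12 to just under Mrpl12 and above Mrps21.

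Mrpl20 (ENSMUSG00000029066) is the homologue of a bacterial protein that binds early in assembly. It measured 16.3 and 13.5 FPKM with EtOH DMSO, 21.3 and 16.3 with EtOH Nec-1, 45.1 and 40.6 with 4-OHT DMSO and 41.8 with 4-OHT Nec-1. Its libraries labelled EtOH stayed below 22 FPKM (log2 fold change 1.47, standard error 0.16, limma adjusted p = 0.00205). Mrpl16 (ENSMUSG00000024683), which lies near the tRNA sites, was at 35.9 and 35.3 FPKM with EtOH DMSO, 34.1 and 33.8 with EtOH Nec-1, 88.4 and 83.4 with 4-OHT DMSO and 70.9 with 4-OHT Nec-1. The 4 libraries labelled EtOH lay within 3 FPKM of each other (log2 fold change 1.25, standard error 0.073, limma adjusted p = 0.000476).

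Mrpl57 (ENSMUSG00000021967), specific to mitochondria, was at 8.88 and 8.81 FPKM with EtOH DMSO, 10.2 and 10.1 with EtOH Nec-1, 18.9 and 18.3 with 4-OHT DMSO and 18.5 with 4-OHT Nec-1. The 3 libraries labelled 4-OHT were within 1 FPKM of each other and clear of the rest (log2 fold change 0.99, standard error 0.075, limma adjusted p = 0.000822). Mrpl44 (ENSMUSG00000026248), with a domain like that of RNase III, was at 14.6 and 14.9, 11.6 and 12.6, 29.4 and 30.2, and 23.1 FPKM in the same order. It too separated by label, with the 4-OHT Nec-1 library between the groups (log2 fold change 0.97, standard error 0.081, limma adjusted p = 0.00107). Mrpl41 (ENSMUSG00000036850) was at 27.9 and 21.6, 27.9 and 27.4, 47.2 and 47.2, and 40.8 FPKM, again without overlap (log2 fold change 0.92, standard error 0.13, limma adjusted p = 0.00430). Each of these 3 was higher in 4 of 4 pairings.

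Of the lower members of this subunit, Mrpl49 (ENSMUSG00000007338) is specific to mitochondria. It was at 19.5 and 19.0 FPKM with EtOH DMSO, 16.6 and 15.0 with EtOH Nec-1, 14.5 and 14.3 with 4-OHT DMSO and 14.0 with 4-OHT Nec-1. Both EtOH DMSO libraries were highest, and the EtOH Nec-1 libraries lay between them and those labelled 4-OHT (log2 fold change -0.40, standard error 0.084, limma adjusted p = 0.0159; 0.0598 without EtOH DMSO replicate 1). Mrpl24 (ENSMUSG00000019710), homologous to a bacterial protein that starts the assembly of the large subunit, was at 57.1 and 50.8 FPKM with EtOH DMSO, 49.2 and 48.7 with EtOH Nec-1, 42.1 and 43.5 with 4-OHT DMSO and 36.2 with 4-OHT Nec-1. Its order of groups was the same (log2 fold change -0.32, standard error 0.086, limma adjusted p = 0.0312), and of the 6 fits with a library of a replicated group left out, only that without EtOH DMSO replicate 2 kept the call (in the others limma adjusted p from 0.0573 to 0.0902). Each of the 3 lower members shares bases with another annotated gene.

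**Figure D3:**
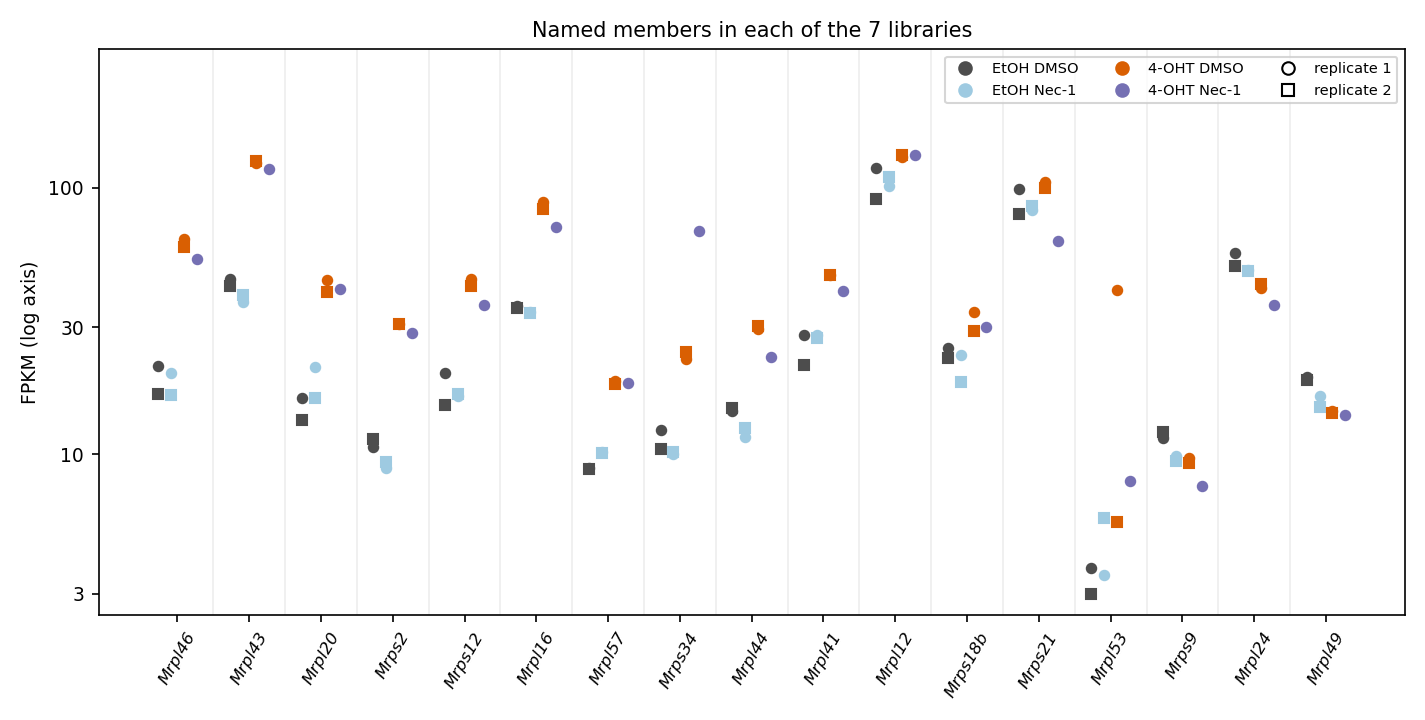
FPKM on a log axis of 17 members named in the text, 1 point per library, coloured by group, circles for replicate 1 and squares for replicate 2. From Mrpl46 to Mrpl41 the libraries labelled 4-OHT lie above those labelled EtOH; Mrpl53 shows 1 library at 41.2 FPKM.

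The starts of 4 of these members are shown next, each with a rise or fall past the threshold. Mrpl46 was also chosen because it begins beside another member. Mrpl20, which rose more than Mrpl16, is not shown. Build and extent are as before. Mrpl46 is chr7:78783040-78783339 on the minus strand, Mrpl43 is chr19:45006393-45006692 on the minus strand, Mrpl16 is chr19:11770165-11770464 on the plus strand, and Mrpl49 is chr19:6057706-6058005 on the minus strand. Capitals mark motif matches, except in Mrpl46, which holds none of the motifs searched and where they mark the 41 bases between its start and that of Mrps11 on the other strand.
Mrpl46: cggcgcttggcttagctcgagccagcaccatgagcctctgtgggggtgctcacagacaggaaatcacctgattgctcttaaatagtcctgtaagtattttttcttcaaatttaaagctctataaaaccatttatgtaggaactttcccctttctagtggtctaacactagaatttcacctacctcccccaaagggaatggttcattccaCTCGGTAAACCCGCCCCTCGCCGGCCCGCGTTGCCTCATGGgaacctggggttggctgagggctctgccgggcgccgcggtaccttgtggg
Mrpl43: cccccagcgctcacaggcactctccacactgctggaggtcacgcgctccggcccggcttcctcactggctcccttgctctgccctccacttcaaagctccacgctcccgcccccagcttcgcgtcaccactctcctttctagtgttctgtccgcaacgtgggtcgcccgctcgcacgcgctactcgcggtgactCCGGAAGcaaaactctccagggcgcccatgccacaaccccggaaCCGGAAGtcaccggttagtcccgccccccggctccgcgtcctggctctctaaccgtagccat
Mrpl16: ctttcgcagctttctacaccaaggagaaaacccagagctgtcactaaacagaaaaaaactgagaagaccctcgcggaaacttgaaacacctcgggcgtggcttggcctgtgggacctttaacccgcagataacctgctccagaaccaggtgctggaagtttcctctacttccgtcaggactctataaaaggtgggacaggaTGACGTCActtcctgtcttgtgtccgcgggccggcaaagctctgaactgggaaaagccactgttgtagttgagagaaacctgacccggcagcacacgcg
Mrpl49: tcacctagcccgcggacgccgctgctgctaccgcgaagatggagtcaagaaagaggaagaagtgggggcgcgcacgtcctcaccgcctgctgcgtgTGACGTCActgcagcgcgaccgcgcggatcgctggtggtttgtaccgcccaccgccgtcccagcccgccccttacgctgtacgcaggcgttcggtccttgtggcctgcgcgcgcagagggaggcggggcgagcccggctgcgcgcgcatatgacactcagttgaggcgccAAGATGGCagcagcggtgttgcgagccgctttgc

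Mrpl43 holds the ETS site at 56 and 12 bases before its start. Mrpl16 holds the CRE at 49 bases before its start, and Mrpl49 holds the CRE at 154 bases before and the YY1 core at 16 bases after its start.

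Promoters of 69 members were in the RefSeq table of 27025 genes, and those of Mrpl13, Mrpl15, Mrpl19, Mrpl38, Mrpl4, Mrpl54, Mrps28, Mrps34 and Mrps35 were not. Each motif was searched on both strands in the same stretch around every listed start, and a match at any start of a gene counts. Mrpl2, Mrpl48 and Mrps16 have several listed starts (3, 4 and 2), and every other member in the table has 1. The ETS site bound by GABP, CCGGAAG or CTTCCGG on the other strand, was in 26 members (37.7%) and in 9.93% of all promoters. The YY1 core AAGATGGC, or GCCATCTT, was in 12 (17.4%) against 3.19%, and the NRF-1 core GCATGCGC, or GCGCATGC, was in 8 (11.6%) against 3.05%. These 3 are thus held by a larger share of members than of all genes, while the next 3 are not far from it. The CRE TGACGTCA, equal on both strands, was in 2 members (2.90%) against 2.03%, the E-box CACGTG in 5 (7.25%) against 8.09%, and the CCAAT box CCAAT, or ATTGG, in 27 (39.1%) against 41.1%. A match only describes the letters. All members passed the filter on low values, whereas the 27025 genes were not filtered. The shares among expressed genes alone were not determined. Of members with a promoter in the table, the ETS site was in 10 of 23 that were higher by limma, in 0 of 3 that were lower and in 16 of 43 others. For the NRF-1 core these were 2, 0 and 6, and for the YY1 core 3, 1 and 8.

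Some members start close to a gene on the other strand. Within 1000 bases this held for 26 members in 25 pairs, since Mrpl46 and Mrps11 form a pair of members, with starts from 8 to 935 bases apart. How often this holds over all genes was not determined. Both genes were tested in 20 pairs, which together with their partners were singled out after their values were seen. In 7 pairs the member was higher by limma in 4-OHT DMSO, and its partner was higher in 0 of them, lower in 1 and past no threshold in 6. Of all genes tested 24.5% were higher and 16.7% lower. In 1 pair both fell, in 1 the partner alone rose, in 1 the partner alone fell, and in 10 neither passed. After centring the same 7 members were higher, and of their partners 0 were higher, 3 lower (Ncapd2, Twnk and Gga3) and 4 past no threshold. Of the 12702 genes tested, 2213 were then higher and 3187 lower. Whether the partners differ from these shares was not tested. That a partner missed the threshold does not show that it did not differ.

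Mrpl46 and Mrps11, whose protein lies on the platform of the small subunit, start 42 bases apart. Against the levels of Mrpl46 given above, Mrps11 (ENSMUSG00000030611) was at 6.74 and 5.90 FPKM with EtOH DMSO, 5.53 and 5.18 with EtOH Nec-1, 7.70 and 7.21 with 4-OHT DMSO and 5.39 with 4-OHT Nec-1. The ratio of Mrpl46 to Mrps11 was 3.18 and 2.85 with EtOH DMSO, 3.63 and 3.23 with EtOH Nec-1, 8.32 and 8.28 with 4-OHT DMSO and 10 with 4-OHT Nec-1. So the ratio separated the labels, while Mrps11 alone had a log2 fold change of 0.21 (limma adjusted p = 0.150).

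Mrpl43 starts 116 bases from Twnk, the gene of the mitochondrial DNA helicase, and the genes share 780 bases. Twnk was at 8.13 and 9.45 FPKM with EtOH DMSO, 7.54 and 7.02 with EtOH Nec-1, 7.70 and 6.51 with 4-OHT DMSO and 6.20 with 4-OHT Nec-1. The ratio of Mrpl43 to Twnk was 5.58 and 4.54, 4.94 and 5.66, 16.1 and 19.4, and 18.9 in the same order, so it was higher in every library labelled 4-OHT. Twnk itself had a log2 fold change of -0.27 (limma adjusted p = 0.124), and of -0.43 after centring (limma adjusted p = 0.0299).

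Mrps12 starts 147 bases from Sars2, the gene of the mitochondrial seryl-tRNA synthetase, which was at 2.23 and 1.74 FPKM with EtOH DMSO and 2.45 and 2.48 with 4-OHT DMSO (log2 fold change 0.22, limma adjusted p = 0.241). Their ratio was 9.04 and 8.81 with EtOH DMSO, 9.01 and 7.40 with EtOH Nec-1, 18.6 and 17.2 with 4-OHT DMSO and 17.4 with 4-OHT Nec-1. The pair Mrpl30 and Mitd1, with starts 66 bases apart, showed the reverse. Mrpl30 was at 32.6 and 29.0 FPKM with EtOH DMSO and 27.1 and 32.4 with 4-OHT DMSO (log2 fold change -0.053, limma adjusted p = 0.753), whereas Mitd1 went from 3.10 and 3.30 to 12.4 and 13.6 (log2 fold change 1.74, limma adjusted p = 0.000482). Mrpl49 and Fau fell together, by 0.40 and 0.46 on the log2 scale (limma adjusted p = 0.0159 and 0.0280).

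**Figure D4:**
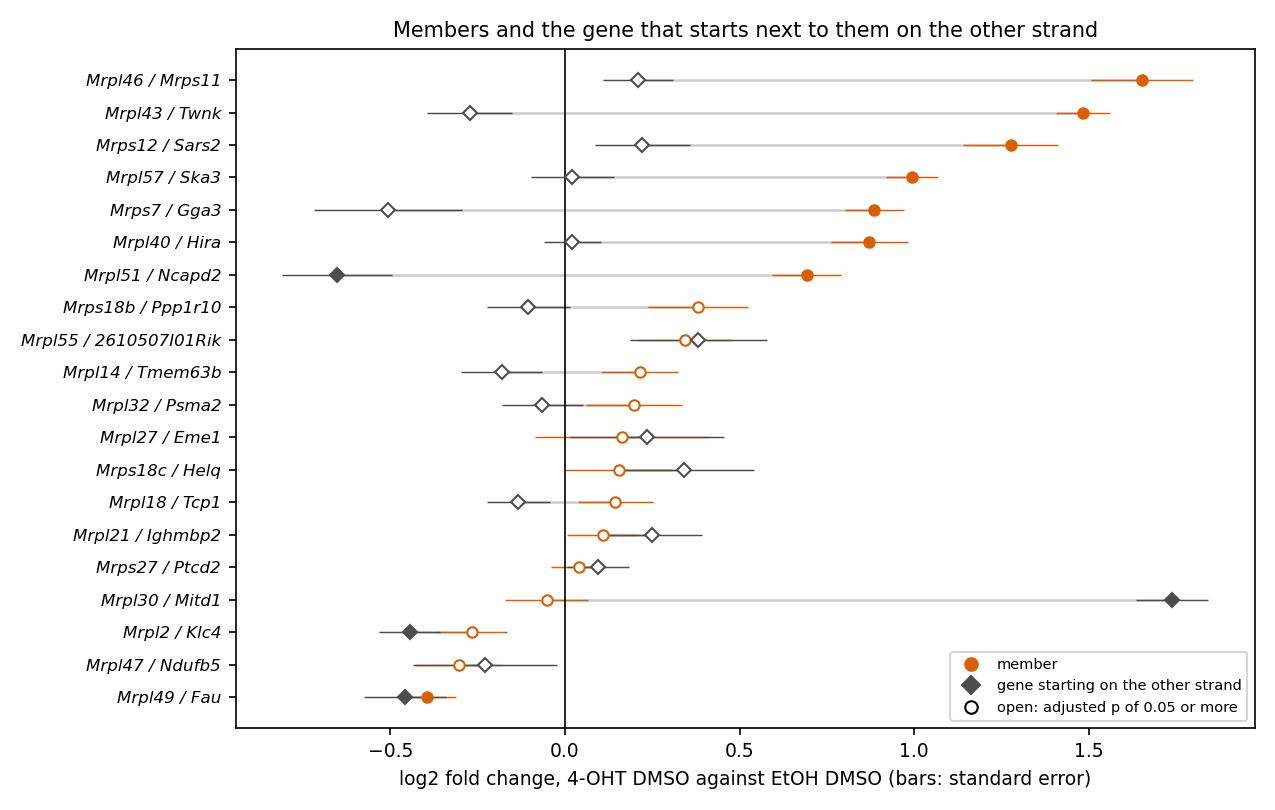
Log2 fold change of 4-OHT DMSO over EtOH DMSO on log2(FPKM + 1) for the 20 pairs of a member (circle) and the gene that starts within 1000 bases on the other strand (diamond), bars giving the standard error and open symbols an adjusted p of 0.05 or more by limma. In the 7 pairs with a higher member, the partner lies to its left, which the choice of pairs by the member's call favours.

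Location says little else. Members lie on 17 chromosomes, and those higher by limma on 12 of them. On the genome 25 members overlap another annotated gene, 9 of the higher ones among them, and the share over all genes was not determined. Members' genes are short, with a median span of 7690 bases against 18084 for the 11908 tested genes with a span. Across the 78 members, span and log2 fold change had a Spearman correlation of -0.435, against -0.0322 across those 11908 genes, both as descriptions over genes that share the same libraries. By limma 24.5% of all genes tested were higher and 16.7% lower, and these shares were not determined by span. Of the 26 members with the shortest span (825 to 5227 bases) 14 were higher and 1 lower, with a median of 0.49. Of the middle 26 (5320 to 9259 bases) 9 were higher and 1 lower, with a median of 0.21, and of the longest 26 (9538 to 121712 bases) 3 were higher and 1 lower, with a median of 0.11. Mean FPKM and log2 fold change correlated with 0.214 across members and -0.0566 across the same 11908 genes.

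The other genes of mitochondrial translation give a setting for these values. Outside the symbol rule 5 proteins belong to the ribosome, and 2 were higher and 1 lower by limma, with a median log2 fold change of 0.35 (after centring 1 higher and 1 lower, median 0.19). Dap3, a GTP-binding protein of the small subunit, was at 16.7 and 16.2 FPKM with EtOH DMSO, 12.8 and 14.6 with EtOH Nec-1, 9.71 and 9.21 with 4-OHT DMSO and 9.37 with 4-OHT Nec-1. It fell in all libraries labelled 4-OHT (log2 fold change -0.74, standard error 0.0945, limma adjusted p = 0.00331), further than any member. Gadd45gip1 of the large subunit rose by 0.60 and Chchd1 of the small one by 0.58 (limma adjusted p = 0.00440 and 0.0181).

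Of 25 factors of ribosome assembly and rRNA modification that were tested, 12 were higher and 3 lower, with a median of 0.30 (after centring 9 higher and 3 lower, median 0.14). Mrm3, which methylates the rRNA of the large subunit, was at 3.44 and 2.98 FPKM with EtOH DMSO, 1.94 and 2.24 with EtOH Nec-1, 12.1 and 10.6 with 4-OHT DMSO and 9.34 with 4-OHT Nec-1, with no overlap between labels (log2 fold change 1.55, standard error 0.12, limma adjusted p = 0.000813). The helicase Ddx28 rose by 1.06, Mterf4 by 0.90 and the rRNA methyltransferase Mettl15 by 0.73 (limma adjusted p = 0.00190, 0.00198 and 0.00912). Of 16 translation factors 4 were higher and 1 lower (median 0.012, and after centring 2 and 2, median -0.15), with Tsfm at 0.73, Gfm1 at 0.56, Slirp at 0.47 and Oxa1l, which inserts proteins into the inner membrane, at -0.48. Of 20 mitochondrial aminoacyl-tRNA synthetases 6 were higher and 3 lower (median 0.078, and after centring 4 and 6, median -0.079), led by Pars2 at 1.503, Wars2 at 0.92, Yars2 at 0.88 and Mars2 at -0.64.

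For mitochondrial transcription and RNA maturation 5 of 14 were higher and 2 lower (median 0.14, and -0.016 after centring), with Tefm at 1.304, Pnpt1 at 1.04, Trmt10c at 0.63 and Elac2 at 0.61. Of 10 regulators of mitochondrial biogenesis 1 was higher, Pprc1 at 0.89, and 0 were lower (median 0.070, and after centring 1 and 1, median -0.087). Cytosolic ribosomal proteins had 2 of 85 higher and 38 lower by limma (median -0.41, and after centring 1 and 49, median -0.57), and nuclear genes of oxidative phosphorylation 9 of 79 higher and 25 lower (median -0.16, and after centring 2 and 34, median -0.31). The 13 proteins encoded in mitochondria, which the ribosome translates, had 3 higher and 3 lower (median 0.26, and 0.10 after centring, with 0 higher and 3 lower). These counts and medians stand beside those of all genes, and differences between the lists were not tested.

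Markers of cell types also differed between the libraries, and not every cell type examined is given here. The 6 Paneth cell markers, Defa24 the most abundant, summed to 8169 and 7399 FPKM with EtOH DMSO, 8874 and 8684 with EtOH Nec-1, 19150 and 19690 with 4-OHT DMSO and 14700 with 4-OHT Nec-1, and limma called 6 of 6 higher in 4-OHT DMSO. The 6 enteroendocrine markers, led by Chgb, summed to 260.6 and 282.3, 299.8 and 321.3, 530.0 and 596.3, and 572.8 FPKM, with 6 of 6 higher. The 6 goblet cell markers, led by Tff3, summed to 1354 and 1258, 1412 and 1388, 1867 and 2067, and 1669 FPKM, with 5 of 6 higher and 3 after centring. The 6 stem cell markers, led by Slc12a2, summed to 76.4 and 75.1, 57.2 and 57.0, 69.7 and 47.3, and 41.3 FPKM, with 0 higher and 3 lower, or 0 and 4 after centring. The 8 markers of proliferating cells, led by Pcna, summed to 209.8 and 197.1, 171.4 and 176.9, 188.3 and 164.2, and 142.7 FPKM, with 1 higher and 2 lower.

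The 8 general markers of intestinal epithelium, led by Krt8, were present at 2731 and 2602, 2499 and 2486, 3137 and 3596, and 2816 FPKM, with 6 higher and 0 lower, or 3 and 1 after centring. The 4 tuft cell markers, led by Avil, summed to 3.75 and 4.23, 4.13 and 4.02, 4.34 and 5.13, and 4.37 FPKM, with 1 tested, Avil, which was higher and not past the threshold after centring. The other 3, Trpm5, Dclk1 and Pou2f3, had lower means in 4-OHT DMSO than in EtOH DMSO (0.572, 0.568 and 0.448 FPKM against 0.741, 0.803 and 0.575). Fibroblast markers, 6 genes with Vim the most abundant, summed to 0.831 and 1.07, 0.507 and 0.760, 1.11 and 0.683, and 1.15 FPKM, and Dcn, Pdgfra, Col1a1, Col1a2 and Col3a1 were each listed at 0 in at least 1 library. The part of these cell types in the members' change was not tested.

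EtOH Nec-1 against EtOH DMSO shows what Nec-1 changes in organoids not given 4-OHT. limma called 0 members higher and 0 lower, against 0.173% and 0.0472% of all genes. At an unadjusted p under 0.05 limma gave 0 higher and 11 lower members (14.1%), against 2.92% and 10.4% of all genes. In 5 members (6.41%) both Nec-1 libraries were above both DMSO libraries and in 28 (35.9%) below, against 10.5% and 39.1% of all genes. The members' median log2 fold change was -0.084, beside -0.094 for all genes, and 0.015 beside 0.0048 after centring. All these shares are near those of all genes. The furthest member, Mrpl10, stood out only after its values were seen, at 30.8 and 26.2 FPKM without and 22.4 and 21.1 FPKM with Nec-1 (log2 fold change -0.37, standard error 0.10, limma adjusted p = 0.272).

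The library labelled 4-OHT Nec-1 was set against the 2 labelled 4-OHT DMSO to ask what Nec-1 changes after 4-OHT. A single library has no replicate check, and the counts here use no test: genes counted as above or below if they were 0.5 log2 units or more from each of the 2 libraries, among the 12036 whose mean over the 3 reached 1 FPKM. Of the members 1 lay above (1.28%) and 2 below (2.56%), against 2.59% and 5.03% of all genes. By any distance 7 (8.97%) were above and 58 (74.4%) below, against 24.5% and 50.6%. The median difference was -0.12 for the members and -0.089 for all genes. Centring shifted the all-gene median by 0.114, to 0.025, and the members' median to -0.0031. The direction of this small difference thus depends on scaling, and it became 0.0002 with upper quartile scaling. The counts rest on both libraries, since 3 members lay above and 4 below without 4-OHT DMSO replicate 1, and 1 above and 4 below without replicate 2.

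Mrps34 is the member above both libraries, with 69.0 FPKM against 22.8 and 24.1, a log2 difference of 1.52. Its neighbours on the genome, picked after their values were seen, were Eme2, 32 bases away, at 1.09 FPKM against 1.10 and 1.14, and Nme3, 210 bases away, at 5.79 against 2.92 and 2.94. For Nme3 the 4 libraries labelled EtOH held 3.37 to 4.46 FPKM. limma was also fitted for the difference between the responses to Nec-1 with and without 4-OHT, but no p-value is given, because 1 side of it is this single library.

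Below both were Mrps21 (ENSMUSG00000054312) and Mrpl21 (ENSMUSG00000024829), homologues of bacterial S21 and L21. Mrps21 was at 99.1 and 79.5 FPKM with EtOH DMSO, 82.4 and 85.6 with EtOH Nec-1, 105 and 99.8 with 4-OHT DMSO and 62.8 with 4-OHT Nec-1, the lowest of the 7 (log2 difference -0.70 from 4-OHT DMSO, and -0.58 after centring). Mrpl21 was at 17.8 and 15.2, 14.8 and 15.9, 18.1 and 17.5, and 11.7 FPKM, also lowest in 4-OHT Nec-1 (-0.56, and -0.45 after centring, when it no longer counted). Ordered by the distance to the nearer library, Mrps11, Mrpl44 and Mrpl40 came next, with differences from the mean of -0.40, -0.35 and -0.43. Above but under the distance came Mrpl32, which must be processed by a protease before it can join the large subunit, at 0.48, Mrpl14 at 0.42, Mrps17 at 0.29 and Mrps33 at 0.053. The 10 largest rises over EtOH DMSO otherwise changed by less than 0.5 log2 units from 4-OHT DMSO.

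In the same libraries 20 interferon-stimulated genes, given for scale, summed to 49.2 and 55.0 FPKM with EtOH DMSO, 42.4 and 43.4 with EtOH Nec-1, 1215 and 1623 with 4-OHT DMSO and 174.2 with 4-OHT Nec-1. Of these 19 lay below both 4-OHT DMSO libraries by the distance used, with a median difference of -2.15, beside -0.12 for the members.

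**Figure D5:**
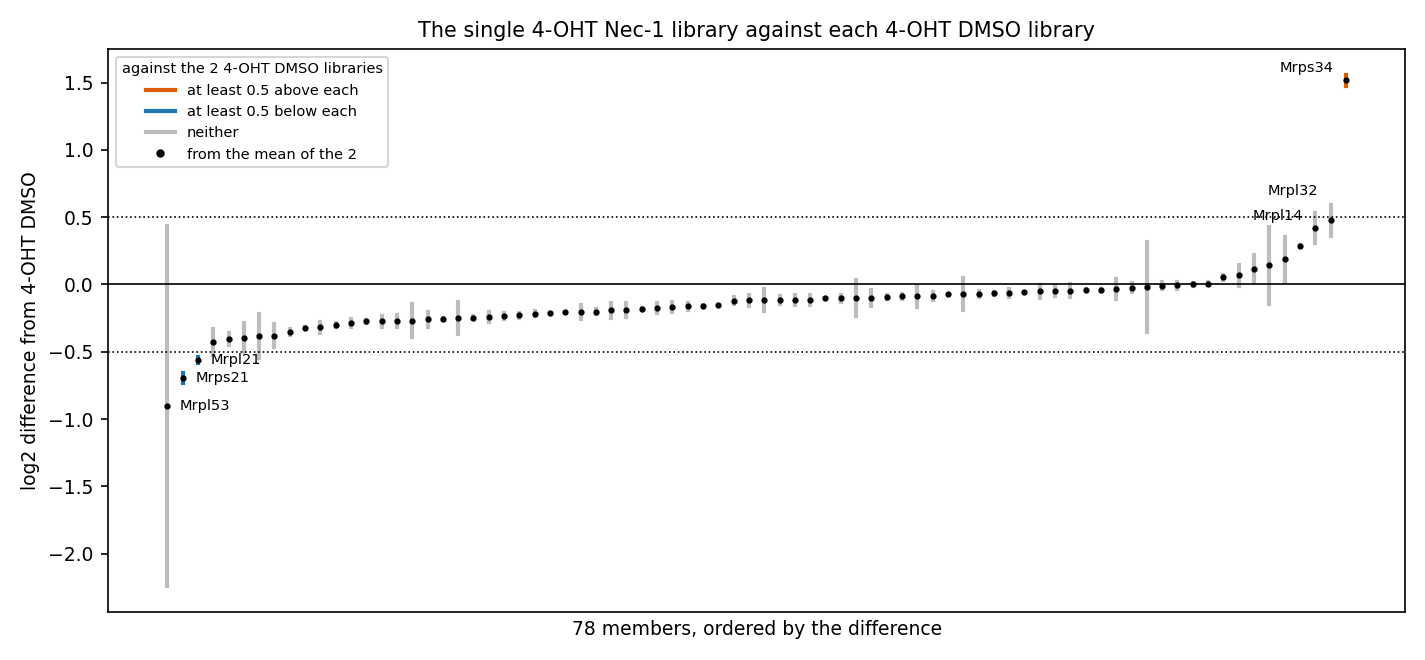
Difference in log2(FPKM + 1) of the single 4-OHT Nec-1 library from each of the 2 4-OHT DMSO libraries for the 78 members, bars spanning both differences and dots the difference from their mean, dotted lines at 0.5 and -0.5. Mrps34 lies above and Mrps21 and Mrpl21 below these lines; the median of the members is -0.12, and -0.0031 after median centring.

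Against the EtOH Nec-1 libraries, the 4-OHT Nec-1 library shows the difference between the labels under Nec-1, again without a test and over 11746 genes. At least 0.5 log2 units above both were 20 members (25.6%) and below both 0, against 15.6% and 8.81% of all genes. By any distance 48 (61.5%) were above and 21 (26.9%) below, against 49.9% and 38.8%. The median difference was 0.27 for the members and 0.067 for all genes. Centring shifted the all-gene median by -0.142, to -0.075, and the members' to 0.13. Then 14 members were above and 4 below, against 1269 and 1694 of the 11746 genes. Without EtOH Nec-1 replicate 1 there were 25 above and 1 below, and without replicate 2 there were 24 and 2. The comparison shares no library with that of 4-OHT DMSO and EtOH DMSO, whereas each of the others shares libraries with both, so that values are given side by side and not correlated.

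Furthest above the nearer EtOH Nec-1 library were Mrps34, whose log2 difference from their mean was 2.66, Mrpl43 at 1.58, Mrps2 at 1.55, Mrpl46 at 1.51 and Mrps12 at 1.07. In 4-OHT DMSO against EtOH DMSO the same 5 had log2 fold changes of 0.98, 1.48, 1.40, 1.65 and 1.28. Furthest below were Mrpl47 at -0.49, Mrpl24 at -0.42, Mrps21 at -0.41, Mrps16 at -0.38 and Mrpl2 at -0.36, and in 4-OHT DMSO against EtOH DMSO these had -0.30, -0.32, 0.20, -0.19 and -0.27. Of these 5 only Mrps21 differed in sign between the 2 comparisons. Its 0.20 in 4-OHT DMSO did not pass (limma adjusted p = 0.225). It became 0.046 after centring (limma adjusted p = 0.811) and 0.36 without EtOH DMSO replicate 1. Mrpl2 encodes a protein beside the peptidyl transferase centre, and it was at 42.9 and 36.8 FPKM with EtOH DMSO, 36.7 and 38.3 with EtOH Nec-1, 33.8 and 32.1 with 4-OHT DMSO and 29.0 with 4-OHT Nec-1, with all 3 libraries labelled 4-OHT below the other 4. It was called lower in 4-OHT DMSO after centring, upper quartile scaling or rescaling to a common sum, and without EtOH DMSO replicate 2 (for the last, log2 fold change -0.37, limma adjusted p = 0.0439).

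Of the least abundant members, Mrpl48 (ENSMUSG00000030706) was at 6.44 and 4.92 FPKM with EtOH DMSO, 6.41 and 5.25 with EtOH Nec-1, 4.25 and 4.32 with 4-OHT DMSO and 4.13 with 4-OHT Nec-1. It was lower in each library labelled 4-OHT, without passing (log2 fold change -0.33, limma adjusted p = 0.133). Mrpl32 was at 5.12 and 4.08, 4.70 and 4.45, 5.93 and 4.90, and 7.89 FPKM, highest in 4-OHT Nec-1. Mrps17 was at 4.56 and 4.71, 3.77 and 4.24, 6.89 and 6.79, and 8.57 FPKM, above in all labelled 4-OHT (log2 fold change 0.48, limma adjusted p = 0.0120). Mrpl58, which can release peptides from stalled ribosomes, was at 4.94 and 5.65, 6.84 and 4.79, 6.52 and 6.03, and 6.04 FPKM, where the groups overlapped. Mrps35 was at 7.21 and 6.57, 5.63 and 5.59, 5.82 and 5.69, and 4.48 FPKM, highest in EtOH DMSO (log2 fold change -0.22, limma adjusted p = 0.0973). Among the most abundant, Mrpl34 was at 57.0 and 48.7, 49.5 and 47.5, 77.6 and 78.5, and 74.5 FPKM, and the labels did not overlap (log2 fold change 0.56, standard error 0.098, limma adjusted p = 0.00856).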

How the data were processed

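RNA sequencing of 7 organoid libraries in 4 groups was analysed, and its 2 CUT&Tag samples were not analysed here. The authors deposited FPKM per Ensembl gene and library, and the submitters' processing notes name HISAT2 2.1.0, StringTie 1.3.3b and mm10. A pair of further columns repeated the values of other libraries, with relative differences of at most 0.000147. Tools were R 4.3.3 with limma 3.58.1 for the fits, and Python 3.11.15 for tables, with pandas 2.3.3 and numpy 2.4.6, scipy 1.17.1 for correlations, matplotlib 3.10.9 for figures.

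limma with a mean-variance trend was fitted to log2(FPKM + 1) of the 12702 genes that reached 1 FPKM in 2 or more libraries, with 1 mean per group and 3 residual degrees of freedom. Adjusted p-values are from Benjamini-Hochberg over all genes tested, with a threshold of 0.05. The reported counts for the 4-OHT Nec-1 library use no test and were made over genes whose mean over the 3 libraries reached 1 FPKM, at 0.5 log2 units or more from each of 2 libraries. The script of the fit was tested on simulated data. Symbols, positions, overlaps and promoters are from RefSeq, and all 78 members had a record.

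Named genes are Mettl3, Mrpl12, Mrps18b, the Mrps18 family, the 5 members of highest and 5 of lowest mean FPKM, up to 10 largest rises and falls past the threshold that moved alike in every pairing of libraries, the 5 members furthest above and below in each comparison of the single library, and up to 4 genes per related list. The members and lists were chosen with earlier results of these data known. Alternatives were median centring, scaling by the upper quartile, rescaling to a common sum, limma with no trend, no filter or 1 FPKM in every library, pseudocounts of 0.1 and 0.25, only the 4 libraries compared, the replicate number as a block, each of the 6 libraries of the replicated groups left out, and, for the single library, a mean that reached 5 FPKM and limma with pooled spread.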

Additional observations from a re-analysis of the deposited data

Results flagged for a closer look

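The 5 pseudogenes of the family were outside all comparisons. In the library labelled 4-OHT DMSO replicate 2, 4 of them were above every library labelled EtOH, and 2 of these by far. Mrpl48-ps was at 7.63 FPKM with 4-OHT DMSO replicate 2, against 2.96 and 2.40 with EtOH DMSO, 3.27 and 2.35 with EtOH Nec-1, 2.15 with 4-OHT DMSO replicate 1 and 2.14 with 4-OHT Nec-1. Mrps36-ps2 was at 6.36 FPKM with 4-OHT DMSO replicate 2, against 0.451 and 0.968 with EtOH DMSO, 0.0280 and 0.164 with EtOH Nec-1, 0.348 with 4-OHT DMSO replicate 1 and 0.522 with 4-OHT Nec-1. Mrpl23-ps1 and Mrps36-ps1 were at 4.14 and 1.25 FPKM in that library, against at most 3.61 and 0.788 in those labelled EtOH. For all 4 the other 4-OHT DMSO library was not high. The members Mrpl48 and Mrps36 were at 4.32 and 21.4 FPKM in that library and at 4.25 and 24.8 in its replicate.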

How the results depend on the processing

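For 4-OHT DMSO against EtOH DMSO, the number of higher members was within 1.5 times of 26 in every planned setting, from 20 to 28 with a library left out. Lower members numbered 3, and 12 with median centring or upper quartile scaling, 5 after rescaling to a common sum, 1 with only the 4 libraries compared, and 0 to 3 with a library left out. Of all 12702 genes limma called 2120 lower, and 3187 with centring. The members' median of 0.21 became 0.057 with centring, 0.064 with upper quartile scaling, and 0.15 to 0.34 with a library left out. For EtOH Nec-1 against EtOH DMSO, limma called 0 members in every planned setting.

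For 4-OHT Nec-1 against 4-OHT DMSO, 2 members lay below, and 1 did with centring or upper quartile scaling, 0 with limma and pooled spread, and 4 with either 4-OHT DMSO library left out. Above lay 1, and 1 to 3 with a library left out. Of all 12036 genes 605 lay below, and 380 did with centring. The members' median of -0.12 became -0.0031 with centring, 0.0002 with upper quartile scaling, -0.16 after rescaling, -0.13 with a pseudocount of 0.1, and -0.15 to -0.13 with a library left out. For 4-OHT Nec-1 against EtOH Nec-1, 0 members lay below, and 4 did with centring or upper quartile scaling, 1 after rescaling or with a pseudocount of 0.1, 2 with limma and pooled spread, and 1 to 2 with a library left out. Of all 11746 genes 1035 lay below, and 1694 did with centring. The members' median of 0.27 became 0.13 with centring, 0.14 with upper quartile scaling, 0.28 with a pseudocount of 0.1, and 0.24 to 0.25 with a library left out. The cause was not tested, other than that centring and upper quartile scaling move all genes of a library together.

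Of the values of single named members in the first comparison, 478 stayed on their side of the threshold, 21 fell short of it and 13 newly passed it. A change of sign with no call in either fit counts among the 478. Mrps18c, for example, went from 0.15 to -0.0033 with centring. For EtOH Nec-1 against EtOH DMSO all 512 stayed short of the threshold, whatever their sign. For the single library, 72 values moved by more than the spread of its reference libraries and 183 did not against 4-OHT DMSO, and 66 did and 190 did not against EtOH Nec-1. None of the named members changed direction after a call in any setting. With a library left out, the lone library of its group is assumed to vary like the other groups.

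The replicate numbers do not pair the samples, as deviations of libraries with the same number correlated with -0.0402, 0.00646 and -0.0120. With the replicate block, 28 members were higher, Mrps18b and Mrps24 added, and 1 lower in the first comparison, and 0 were called for EtOH Nec-1 against EtOH DMSO.

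Sets of members chosen after seeing the data were also tried. Without the 25 members that overlap another gene, 17 of the remaining 53 were higher and 0 lower in 4-OHT DMSO. By limma 24.5% of all genes were higher and 16.7% lower. For 4-OHT Nec-1 against 4-OHT DMSO 1 of the 53 lay below (median -0.15), beside 5.03% of all genes. Against EtOH Nec-1 13 of the 53 lay above (median 0.16), beside 15.6% of all genes. Without the 3 members with a gap of at least 0.5 between the libraries of a group, the last median was 0.21.

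Groups of 2 libraries and 1 limit the precision of every value. Fragment numbers are unknown, so counting error could not be given. The 4-OHT Nec-1 library has no replicate, and a feature of that library cannot be told apart from an effect of both agents. FPKM are relative, so a change in the total RNA per cell is not seen. The values are RNA levels, and no protein was measured.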

Other observations

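Among the pseudogenes of the family, Mrpl23-ps1 was at 3.61 and 3.10 FPKM with EtOH DMSO, 3.12 and 1.84 with EtOH Nec-1, 1.71 and 4.14 with 4-OHT DMSO and 1.95 with 4-OHT Nec-1, with the groups overlapping. Mrps36-ps1 was at 0.339 and 0.367, 0.788 and 0.0981, 0.210 and 1.25, and 0.803 FPKM. Mrps36-ps3 was listed at 0 in all 7 libraries.

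Mogs, whose gene lies 5573 bases from Mrpl53 and was picked after its values were seen, was at 18.3 and 20.9 FPKM with EtOH DMSO, 16.2 and 16.2 with EtOH Nec-1, 34.5 and 29.4 with 4-OHT DMSO and 23.4 with 4-OHT Nec-1. It did not jump in 4-OHT DMSO replicate 1 as Mrpl53 did.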
